A study of Homo sapiens with 6 samples.

Results

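The mRNAs of 9 nonsense-mediated decay (NMD) factors, UPF1, UPF2, UPF3A, UPF3B, SMG1, SMG5, SMG6, SMG8 and SMG9, were followed in the RNA-seq table of αCP1/2-depleted and control K562 cells. These genes were chosen by symbol, each symbol had 1 entry, and all 9 were found among the 57150 genes of the table. K562 is a human erythroleukemia line. In the KD group, 3 pools of these cells were transfected with siRNAs that co-target the mRNAs of αCP1 and αCP2, the poly(C)-binding proteins encoded by PCBP1 and PCBP2. In the CTRL group, 3 pools received control siRNAs, which by the study's methods included siRNAs against the unrelated GLD-2 mRNA and a non-targeting siRNA. All pools were harvested after 72 h, and they are pools of a single cell line. The study asked how αCP1/2 affect alternative splicing, and only the gene-level table was analysed here.

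NMD degrades mRNAs on which a ribosome terminates at a premature stop codon. UPF1 is the RNA helicase at the centre of the pathway, and UPF2 with UPF3A or UPF3B links it to the exon junction complex, a protein mark left upstream of spliced exon junctions. The kinase SMG1, in a complex with SMG8 and SMG9, phosphorylates UPF1, and phosphorylated UPF1 is bound by SMG5 and SMG6, of which SMG6 cuts the mRNA and SMG5 takes part in recruiting deadenylation and decapping enzymes. NMD is linked to alternative splicing because many skipped or retained exons create premature stop codons, and the mRNAs of several NMD factors are themselves known NMD substrates.

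For every gene the table holds 1 FPKM value, the number of fragments scaled by transcript length and by the number of mapped fragments, and 1 estimated count under KD and under CTRL. Since the pools of a group are merged into one value, replicate error is unknown, and differences are given without a test. Estimated counts summed to 13699340 for KD and 11680567 for CTRL. Both sums are below the mapped read pairs that the paper lists for each single library, so the counts may not be plain fragment totals of a group. Neither targeted mRNA was clearly lower for KD. PCBP1 was at an FPKM of 184.1 for KD and 187.8 for CTRL, and PCBP2 was at 530.8 and 342.4. Of 15 erythroid and K562 markers, 8 were at 0 in both columns, among them GATA1, TAL1, KLF1, ALAS2 and HBZ, and the summed FPKM of all 15, 295.3 for KD and 109.1 for CTRL, came mostly from HBE1, at 152.9 and 35.4, and TFRC, at 133.7 and 65.7. Of 6 epithelial markers, KRT7, KRT8 and KRT18 exceeded an FPKM of 5 in both columns. EPCAM was at 3.94 for KD and 3.26 for CTRL, CDH1 at 0.363 and 0.426, and KRT19 at 0 in both. The 6 summed to 4358 and 3174, almost all of it from KRT7, KRT8 and KRT18. Both the targeted mRNAs and the defining markers thus did not follow the labels, so it is uncertain that the columns hold the RNA the labels describe, and KD and CTRL below mean only the columns so labelled. The part of these markers in the NMD factor values was not tested, and in such bulk RNA fewer cells of a type cannot be told apart from less RNA per cell.

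Each log2 ratio below is that of FPKM + 1, KD over CTRL, a scale on which low values are compressed. As a second measure, the share of a gene in all counts of its column was compared, with a 95% exact binomial interval. Every interval below takes the estimated counts as plain fragment numbers and covers only the counting error that would then apply. The median of the 13741 genes whose mean FPKM reached 1, all 9 factors among them, was 0.01 on the FPKM scale and -0.21 on the count share scale, so count shares are given relative to that median.

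NMD factor mRNAs spanned an FPKM of 5.52 to 47.3 in the KD column and 8.21 to 63.0 in the CTRL column. UPF3B was the highest in both columns and SMG9 came next. The lowest places were taken by SMG1, SMG6 and SMG8, which stayed below an FPKM of 13 in both columns. Among neighbours in this order, the counting intervals of SMG9 and UPF1, of SMG5 and UPF2, and of SMG1 and SMG6 overlapped for KD, and those of SMG9 and UPF3A, of SMG5 and UPF1, and of SMG8 and SMG6 overlapped for CTRL. UPF3A was in the third place for CTRL and in the sixth place for KD, and UPF1 was in the sixth place for CTRL and in the third place for KD. The factors summed to an FPKM of 223.9 for KD and 245.2 for CTRL.

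**Figure D1:**
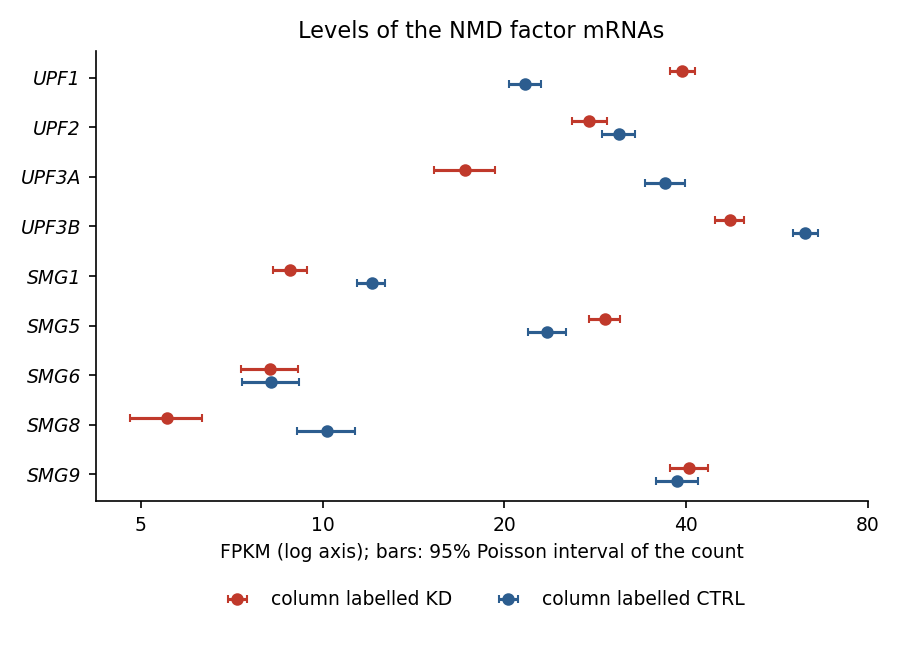
FPKM (log axis) of the 9 NMD factor mRNAs in the KD and CTRL columns, 1 value each, with bars for the 95% Poisson interval of the count. UPF1 lies at 39.4 for KD and 21.6 for CTRL, and UPF3A at 17.2 and 36.98. The bars of the KD and CTRL columns overlap for UPF2, SMG6 and SMG9.

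UPF1 was the factor with the highest log2 ratio. UPF1 (ENSG00000005007) lies on chromosome 19 from 18942768 to 18979039 in GRCh37, and its canonical transcript of 5321 nt in 24 exons encodes 1118 amino acids. Its FPKM was 39.4 for KD and 21.6 for CTRL, from 1710 and 1072 counts, a log2 ratio of 0.84 or a 1.79-fold higher value. The relative count share gave 0.65, with an interval of 0.54 to 0.76. After removal of a trend with GC content and exon length, described below, the log2 ratio of UPF1 was 0.43. No 100-nt stretch of its mRNA, the length of a read, occurs exactly elsewhere in the genome. Among all 13741 genes, 1658 had a ratio as high as that of UPF1 or higher, UPF1 included.

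UPF2, the adaptor between UPF1 and the UPF3 proteins, lay slightly to the other side. UPF2 (ENSG00000151461; chromosome 10, 11962021 to 12085169) had an FPKM of 27.7 for KD and 31.0 for CTRL, from 891 and 1003 counts, a log2 ratio of -0.16. Its relative count share was -0.19, with an interval of -0.33 to -0.062. The order of the pair was thus reversed between columns. UPF1 was at 1.42 times the FPKM of UPF2 for KD and at 0.699 times for CTRL, a ratio that does not depend on the scaling between columns. On counts it differed by 0.84 in log2, with an interval of 0.67 to 1.02. With the GC and length trend removed, UPF1 was at 0.43 and UPF2 at 0.03.

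UPF3A had the lowest log2 ratio and was the only factor past 2-fold, with 0 factors higher by 2-fold. UPF3A and UPF3B are paralogs that occupy the same place in the pathway, of which UPF3B is the stronger NMD activator in most assays. UPF3A (ENSG00000169062) lies on chromosome 13 from 115047076 to 115071292, and its canonical transcript of 2370 nt encodes 476 amino acids. Its FPKM was 17.2 for KD and 36.98 for CTRL, from 288 and 672 counts, a log2 ratio of -1.06 or a 2.09-fold lower value. The relative count share was -1.25, with an interval of -1.45 to -1.04. Of all genes tested, 3.27% had a log2 ratio of -1 or less and 8.51% one of 1 or more. The count of 1 of 9 factors past the threshold in either direction, or 11.1%, lay near the 11.8% of all genes. With the GC and length trend removed, UPF3A was at -0.95 and no factor was past 2-fold.

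UPF3B (ENSG00000125351; chromosome X, 118967985 to 118986961; 483 amino acids) was also lower for KD, by less. Its FPKM was 47.3 for KD and 63.0 for CTRL, from 1282 and 1716 counts, a log2 ratio of -0.41 with a relative count share of -0.44 (interval -0.55 to -0.34). The balance of the paralogs differed between columns. UPF3B was at 2.75 times the FPKM of UPF3A for KD and at 1.70 times for CTRL, a difference in the count ratio of 0.80 in log2, with an interval of 0.57 to 1.03.

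UPF3A has 3 processed copies that were listed in the table under their own names, UPF3AP1 and UPF3AP2 on chromosome 17 and UPF3AP3 on chromosome 9. They are retrotransposed, intronless copies of the mRNA. Along their aligned lengths of 1112, 1462 and 674 nt they were identical to the UPF3A mRNA at 99.2%, 99.1% and 94.2% of positions. Of the 2271 stretches of 100 nt in the UPF3A mRNA, 894 occur exactly elsewhere in the genome, or 39.4%, against at most 4.67% for each other factor. These matches were not counted separately for the 3 copies, and stretches of 50 nt also matched within the bounds of other annotated genes. How the authors' counting divided such reads is not given in the sources used here. The following 30 nt lie in a UPF3A coding exon. They are the first such stretch that aligns to every copy without a gap and differs from each at only a few positions. That upper limit was set in the search. The stretch is shown as an example of bases that separate reads of these genes. Capitals in UPF3A mark every position at which any copy differs, and capitals in a copy mark where it differs itself.
UPF3A, chr13:115067250-115067279, plus strand: ctcaagaaCaagaatctgaaGcacaaagaT
UPF3AP1, chr17:16649295-16649324, minus strand: ctcaagaacaagaatctgaaTcacaaagaC
UPF3AP2, chr17:20279370-20279399, minus strand: ctcaagaacaagaatctgaagcacaaagaC
UPF3AP3, chr9:102760886-102760915, minus strand: ctcaagaaAaagaatctgaagcacaaagaC
With position 1 at the 5′ base of each stretch, all copies carry T30C, UPF3AP1 also carries G21T, and UPF3AP3 also carries C9A. Coordinates are those of GRCh37.

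All copies had fewer counts for KD than for CTRL. UPF3AP1 had 19 and 70 counts, UPF3AP2 had 40 and 144, and UPF3AP3 had 9 and 15. The log2 ratio of count shares, not set relative to the median, was -2.11 for UPF3AP1, -2.08 for UPF3AP2 and -0.97 for UPF3AP3, and only the interval of UPF3AP3 included 0. The copies held 19.1% of the counts of the family for KD and 25.4% for CTRL. When the counts of UPF3A and its copies were added together, a measure chosen after seeing the data, the log2 ratio of count shares was -1.57, with an interval of -1.75 to -1.39, against -1.45 for UPF3A alone. The family as a whole was thus also lower for KD.

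**Figure D2:**
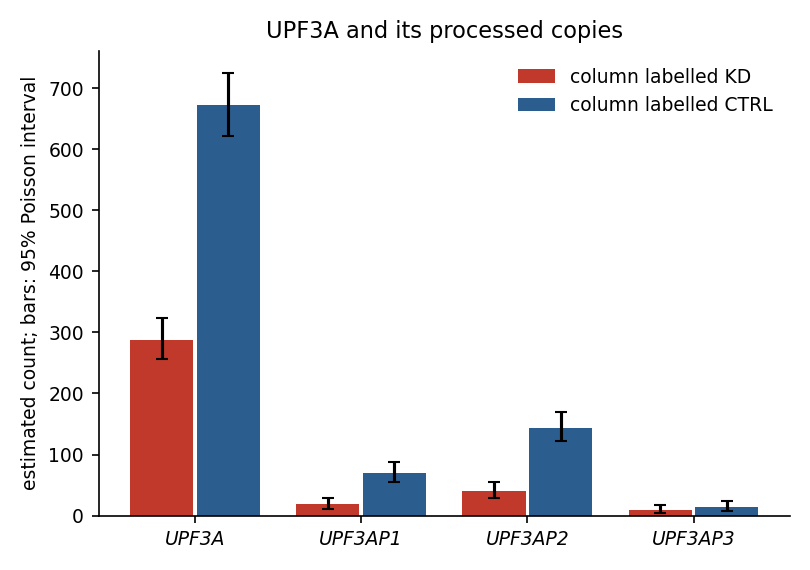
Estimated counts of UPF3A and its 3 processed copies in the KD and CTRL columns, with bars for the 95% Poisson interval. UPF3A has 288 counts for KD and 672 for CTRL, and each copy is also lower for KD, although the intervals overlap for UPF3AP3.

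Of the 3 subunits of the SMG1 complex, SMG1 and SMG8 were lower for KD, and the direction of SMG9 depended on the scale. SMG1 (ENSG00000157106; chromosome 16, 18816182 to 18937730; 3661 amino acids), the kinase that phosphorylates UPF1, had an FPKM of 8.83 for KD and 12.0 for CTRL, from 950 and 1360 counts. Its log2 ratio was -0.41 and its relative count share -0.54, with an interval of -0.66 to -0.42. SMG1 has partial copies on chromosome 16, SMG1P1 to SMG1P7. SMG1P3 was at an FPKM of 2.26 for KD and 2.18 for CTRL, SMG1P4 at 2.17 and 2.06 and SMG1P7 at 0.696 and 1.94, and the others were below 1 in both columns. Together the copies had 105 counts for KD and 138 for CTRL, and adding them left the log2 ratio of count shares at -0.74, against -0.75 for SMG1 alone.

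SMG8 (ENSG00000167447; chromosome 17, 57286761 to 57292600), a regulatory subunit that restrains the kinase, was the factor with the lowest FPKM for KD. It was at 5.52 for KD and 10.2 for CTRL, from 208 and 321 counts, a log2 ratio of -0.78 with a relative count share of -0.65 (interval -0.91 to -0.39). After UPF3A it was the factor with the lowest ratio. SMG9 (ENSG00000105771; chromosome 19, 44232135 to 44259114), which binds SMG8 and SMG1, was at 40.5 for KD and 38.7 for CTRL, from 762 and 626 counts. Its log2 ratio was 0.06 and its relative count share 0.26, with an interval of 0.11 to 0.42, but with the GC and length trend removed SMG9 was at -0.13, SMG1 at -0.15 and SMG8 at -0.72. SMG9 was at 7.33 times the FPKM of SMG8 for KD and at 3.81 times for CTRL, and on counts this ratio differed by 0.91 in log2, with an interval of 0.61 to 1.21. SMG8 was at 0.625 times the FPKM of SMG1 for KD and at 0.843 times for CTRL. Their count ratio differed by -0.11 in log2, with an interval of -0.39 to 0.18, so that no difference was resolved on the estimated counts.

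Of the factors that act after UPF1 phosphorylation, SMG5 was higher for KD on FPKM and count shares but not with the GC and length trend removed, and SMG6 was not separable from the median of all genes on count shares. SMG5 (ENSG00000198952; chromosome 1, 156219015 to 156252616) had an FPKM of 29.3 for KD and 23.5 for CTRL, from 1141 and 774 counts, a log2 ratio of 0.30 with a relative count share of 0.54 (interval 0.40 to 0.67), and it was at -0.04 with that trend removed. SMG6 (ENSG00000070366; chromosome 17, 1963133 to 2207079), the endonuclease, had an FPKM of 8.17 for KD and 8.21 for CTRL, from 332 and 342 counts, a log2 ratio of -0.01. Its relative count share was -0.07, with an interval of -0.29 to 0.16. Of the annotated exon bases of SMG6, 24.7% are shared with other genes on the opposite strand, among them HIC1, which had 36 and 12 counts. The library kit does not mark strand, so reads from such bases cannot be told apart. SMG5 was at 3.59 times the FPKM of SMG6 for KD and at 2.87 times for CTRL, and on counts this ratio differed by 0.60 in log2, with an interval of 0.34 to 0.86. On FPKM it differed by only 0.32. With the GC and length trend removed, SMG5 was at -0.04 and SMG6 at -0.14. In all, 10 pairs of factors were compared, chosen after the values were seen.

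Across the 9 factors, 3 had a log2 ratio above 0 (UPF1, SMG5 and SMG9) and 6 below 0, with a median of -0.16 against 0.01 for all genes. Of all genes, 51.1% lay above 0 and 48.9% below. Relative to the median of all genes, the interval of the count share lay above 0 for UPF1, SMG5 and SMG9, below 0 for UPF2, UPF3A, UPF3B, SMG1 and SMG8, and held 0 for SMG6. The share of all genes called in this way was not computed, so these centred calls have no background. Without that centring, the interval excluded 0 for 8 of 9 factors, or 88.9%, against 67.5% of all genes. It lay above 0 for 2 factors and below for 6, against 23.8% and 43.7% of all genes. These shares reflect counting error on the estimated counts as given and say nothing about differences between pools. They also depend on level, as intervals narrow with more counts. The median FPKM of the factors was 27.7 for KD and 23.5 for CTRL, against 10.9 and 10.5 for all genes that passed the filter.

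**Figure D3:**
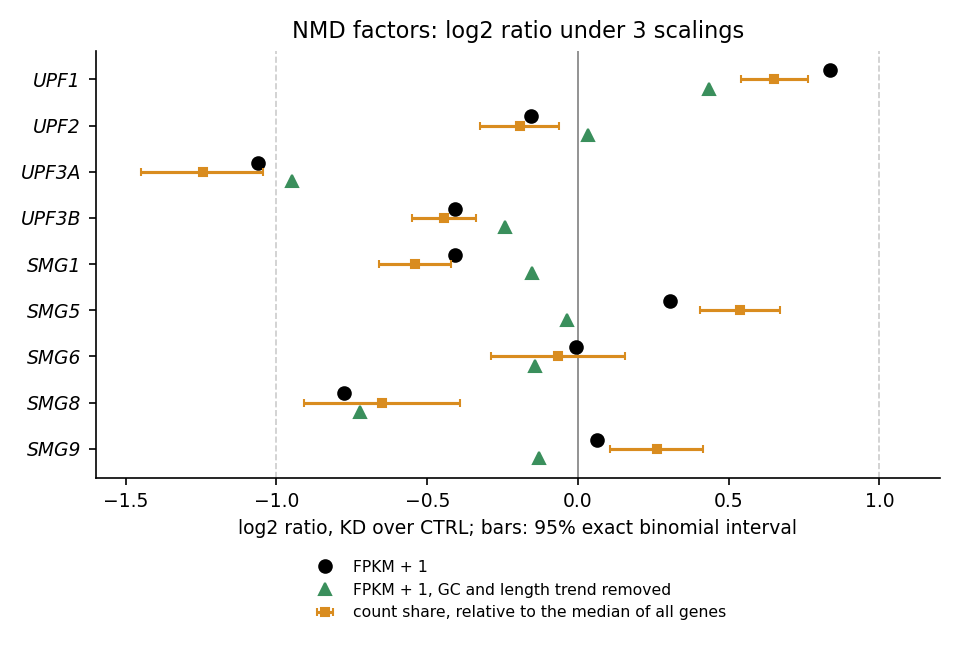
Log2 ratio, KD over CTRL, of each NMD factor from FPKM + 1 (circles), from count shares relative to the median of all genes with 95% exact binomial intervals (squares), and from FPKM + 1 after removal of the GC and length trend (triangles). UPF1 lies above 0 and UPF3A and SMG8 below 0 on all 3 scales, while SMG5 is at 0.30, 0.54 and -0.04.

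The log2 ratio moved with the GC content of genes, and 7 of the 9 NMD factors lay closer to that trend than UPF3A and SMG8 did. When 13298 genes were split into 4 groups by rising GC content of their exons, the median log2 ratio was -0.24, -0.12, 0.09 and 0.48. UPF2, UPF3B and SMG1, with 41.2% to 41.7% GC, were in the lowest group, UPF3A and SMG8, with 44.7% and 46.6%, in the next, SMG6 and SMG9, with 53.3% and 54.3%, in the third, and UPF1 and SMG5, with 59.0% and 57.4%, in the highest. When the trend with GC content and log2 length, fitted as a quadratic over all genes, was subtracted, UPF1 was at 0.43, UPF3A at -0.95 and SMG8 at -0.72. The other 6 factors lay between -0.24 (UPF3B) and 0.03 (UPF2), and UPF2, SMG5 and SMG9 changed sign, to 0.03, -0.04 and -0.13. The part of this trend in the values of the factors was not tested beyond that subtraction.

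**Figure D4:**
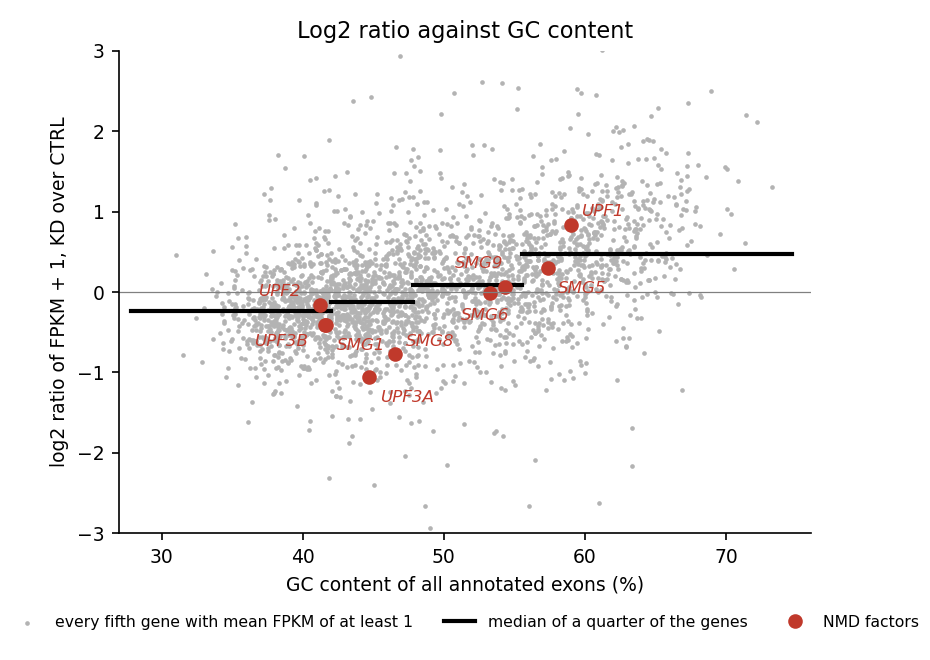
Log2 ratio of FPKM + 1, KD over CTRL, against the GC content of all annotated exons, for 1 in 5 of the genes that passed the filter (grey, cropped at 3 in either direction), the NMD factors (red) and the median of each of the 4 groups by GC content (black lines). The medians run from -0.24 to 0.48, and UPF3A and SMG8 lie further below the median of their group than the other factors.

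Genes around these factors were described by lists. Among other NMD factors, DHX34, a helicase that assists the SMG1 complex, was at 12.6 for KD and 5.23 for CTRL, a log2 ratio of 1.13, which was 0.57 with the GC and length trend removed. PNRC2, which links UPF1 to decapping, was at 40.01 and 73.7, a log2 ratio of -0.87.

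Of 11 genes of the exon junction complex and its partners, 6 had a log2 ratio above 0 and 5 below 0, with a median of 0.22. RNPS1, a splicing coactivator that joins the complex, was at 165.8 for KD and 78.5 for CTRL, from 2989 and 1516 counts, a log2 ratio of 1.07, while its relative count share was 0.96. It was the only 1 of the 11 past 2-fold, against 11.8% of all genes in either direction. SAP18, its partner, had the lowest ratio on FPKM, at -0.52, but a relative count share of 0.35, so the 2 scales differ in its direction. RBM8A, a core subunit with the highest mean FPKM of the list, was at 161.5 and 180.9, a log2 ratio of -0.16.

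Translation termination, cap and poly(A) binding genes had a median of -0.20 for the 6 of 7 that passed the filter, of which 1 was above 0. This was PABPC1, the cytoplasmic poly(A)-binding protein that opposes NMD, at 2125 for KD and 1235 for CTRL, a log2 ratio of 0.78 from 36286 and 23999 counts. NCBP1, the large cap-binding subunit, had the lowest ratio, at -0.61, with an FPKM of 15.1 and 23.4. GSPT2 was listed at 0 in both columns.

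Of 17 genes for decapping, deadenylation and degradation, 8 were above 0 and 9 below 0, with a median of -0.06. On FPKM none was past 2-fold, against 11.8% of all genes. PARN, a deadenylase, had the lowest ratio, at -0.77, with 12.5 for KD and 22.0 for CTRL, but a relative count share of -0.27. On that scale XRN1, the main cytoplasmic 5′ to 3′ exonuclease, named after its values were seen, was the lowest, at -1.09. Its FPKM was low, at 1.82 for KD and 3.14 for CTRL. The log2 ratio of XRN1 was -0.56 on FPKM and -0.28 with the GC and length trend removed. SKIV2L, the helicase of the cytoplasmic exosome cofactor, had the highest, at 0.62, with 60.5 and 39.1, but its relative count share was 0.23. CNOT7, a deadenylase of the CCR4-NOT complex with the highest mean FPKM of the list, was at 73.3 and 120.0, a log2 ratio of -0.70.

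Transcripts known as NMD substrates, 14 in number, had a median of 0.33, with 9 above 0 and 5 below 0. SNHG1, a snoRNA host transcript, was at 500.4 for KD and 248.5 for CTRL, a log2 ratio of 1.01, and its relative count share was 0.94. GAS5, the most abundant of the list and another snoRNA host, was at 865.2 and 716.8, a log2 ratio of 0.27. SLC7A11, the cystine transporter, was at 0.809 and 4.50, from 97 and 540 counts, a log2 ratio of -1.61 and a relative count share of -2.50. Past 2-fold lay 1 of the 14 substrates in each direction, against 8.51% of all genes higher for KD and 3.27% lower. The substrates did not share a direction. With the GC and length trend removed the median was 0.21.

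**Figure D5:**
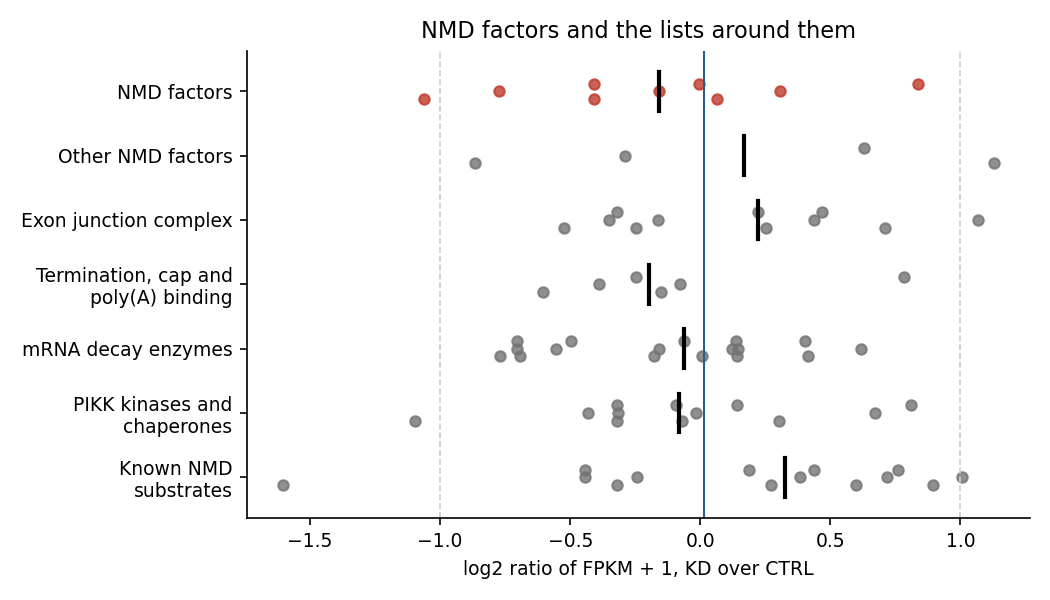
Log2 ratio of FPKM + 1, KD over CTRL, of each gene that passed the filter in the NMD factor list (red) and in the lists around it (grey), with the median of each list (black line), the median of all genes (blue line) and 2-fold in either direction (dashed). The NMD factors spread from -1.06 to 0.84 around a median of -0.16, and every list has genes on both sides of 0.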

How the data were processed

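According to the submitters' processing notes and the methods, the authors aligned the paired reads to hg19 with TopHat 1.4.1 and obtained FPKM from Cuffdiff 2.2.0. The deposited table holds FPKM and estimated counts, 1 value of each per gene and group. How the authors combined the libraries of a group is not given in the sources used here. Fold changes and p-values of the authors' own comparison, also in the table, were not used.

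A pseudocount of 1 was added to FPKM before the log2 ratio was taken, and 13741 genes passed a minimum mean FPKM of 1. Count ratios carry 95% exact binomial intervals, levels 95% Poisson intervals and pairs of genes conditional exact intervals. All take the estimated counts as plain fragment numbers and cover counting error only. Gene models came from GENCODE release 44 on GRCh37, and GC content and length were found for 13298 of the genes. Exact matches of 100 nt were searched in the whole genome. Functions were tested on simulated data. The factors and the lists were chosen with earlier results of these data known. Genes named are all 9 factors, the targeted genes and, of each pathway list, those past 2-fold, the highest and lowest ratio and the highest mean FPKM. HIC1, the only gene overlapping a factor that had counts, some marker genes and XRN1 were named in addition, and some genes of the lists are not reported here. Python 3.11.15, scipy 1.17.1, numpy 2.4.6, pandas 2.3.3, biopython 1.88, numba 0.67.0 and matplotlib 3.10.9 were used.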

Additional observations from a re-analysis of the deposited data

How the results depend on the processing

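No paired analysis was possible because each gene has a single value for each group, and for the same reason no library could be left out. Over 20 results, 76 values were computed under the alternatives, and 57 stayed within the counting interval, the interval of the median or 1.5 times the count. For medians this interval is wide, as each list holds few genes. On uncentred count shares the median went from -0.16 to -0.40 for the NMD factors and from -0.06 to -0.47 for the decay enzymes. It went from 0.33 to 0.01 for the known substrates and from 0.17 to -0.09 for the other NMD factors, all counted as within. Centring on the median of all genes subtracts only 0.01. The sign was the same under every alternative for 6 of the 9 factors, and the exceptions were UPF2, SMG5 and SMG9. On count shares, not set relative to the median, the log2 ratio was 0.44 for UPF1, -0.40 for UPF2, -1.45 for UPF3A, -0.65 for UPF3B, -0.75 for SMG1, -0.27 for SMG6 and -0.34 for the median of the PIKK kinases and their chaperones. This scaling moves the median of all genes from 0.01 to -0.21. With the GC and length trend removed, it was 0.43 for UPF1, 0.032 for UPF2, -0.24 for UPF3B, -0.15 for SMG1, -0.038 for SMG5 and -0.13 for SMG9, and 0 factors were lower by 2-fold, against 1. Adding the copies, an alternative chosen after seeing the data, gave -1.57 for UPF3A and -0.74 for SMG1, on count shares. Of all genes, 450 were lower by 2-fold, against 791 with a pseudocount of 0.1, 1377 with count shares and 292 with an FPKM over 5 in at least 1 column, where fewer genes were counted. Of genes past 2-fold, 72.2% were higher for KD on FPKM and 41.8% on count shares. Apart from these constructions, the cause was not tested.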

Other observations

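SMG1 belongs to the phosphatidylinositol 3-kinase-related kinases (PIKKs), which share a set of chaperones. Of 12 genes for the other PIKKs and these chaperones, 4 had a log2 ratio above 0 and 8 below 0, with a median of -0.08. RPAP3, a subunit of the R2TP chaperone complex, was at an FPKM of 18.9 for KD and 41.5 for CTRL, a log2 ratio of -1.10, while PIH1D1, its direct partner in that complex, was at 57.4 and 32.4, a log2 ratio of 0.81. The relative count share was -0.67 for RPAP3 and 0.87 for PIH1D1. With the GC and length trend removed their log2 ratios were -0.84 and 0.43. RUVBL1, a helicase of the same complex with the highest mean FPKM of the list, was at 79.96 and 64.6, a log2 ratio of 0.30.

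The table's count and FPKM of a gene together imply a length, and for the NMD factors this length differed between the columns by unequal amounts. It is not the annotated transcript length, as SMG9 was at 1375 nt for KD with an mRNA of 5491 nt. By its formula, its log2 ratio equals that of count shares minus that of FPKM. It thus restates, gene by gene, how the scales differ and is not a separate observation on transcripts. UPF1 was at 3168 nt for KD and 4244 nt for CTRL, and UPF3A at 1222 nt and 1556 nt. SMG5, SMG8 and SMG9 were at 2840, 2751 and 1375 nt for KD and at 2814, 2706 and 1386 nt for CTRL. In log2, the implied length differed by -0.42 for UPF1 and -0.35 for UPF3A, against a median of -0.23 over 13626 genes with quartiles of -0.27 and -0.17, and by -0.01 to 0.02 for SMG5, SMG8 and SMG9. Why the scales differ by unequal amounts was not tested.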
